A study of Mus musculus with 4 samples.

Results

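The Gimap genes encode the GTPases of immunity-associated proteins, and the 8 mouse genes named Gimap1, Gimap3, Gimap4, Gimap5, Gimap6, Gimap7, Gimap8 and Gimap9 were chosen by name, out of 31053 genes in the count tables. They were followed in T cells of the meninges, the membranes around the brain, and of the choroid plexus, the tissue that makes cerebrospinal fluid, in young and aged mice. The mice were female C57BL/6 animals, 10 weeks (young) or 18 months (aged) old, with no engineered allele or treatment named. T cells bearing CD4 or CD8 were isolated by flow cytometry, and the 5′ ends of their transcripts were sequenced in droplets. There were 4 libraries, 1 for each tissue at each age, and each was pooled from 5 mice. With 1 library per condition no test across mice was possible, no p-value is given, and age or tissue cannot be told apart from any other difference between these libraries. All intervals below are 95% intervals that cover counting error only.

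GIMAP proteins are small GTPases that sit on intracellular membranes, among them those of lysosomes, the endoplasmic reticulum, mitochondria and lipid droplets, and they are found mainly in lymphocytes. Several of them set how long resting T and B cells live: loss of Gimap5 in rodents depletes peripheral T cells, and loss of Gimap1 removes mature lymphocytes. Other members act at different points, since Gimap4 promotes T cell death after an apoptotic signal and Gimap6 binds a protein of the autophagy machinery.

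The 8 members lie side by side on mouse chromosome 6, from base 48647234 to base 48770851 (GRCm38, GENCODE vM21), a stretch of 123.618 kb. Their order is Gimap8, Gimap9, Gimap4, Gimap6, Gimap7, Gimap1, Gimap5 and Gimap3. Gimap6 and Gimap3 are transcribed from the minus strand and the other 6 from the plus strand. Gimap7, which was higher in the aged library for each cell type of both tissues, spans chr6:48718621-48724636 and Gimap6, which was not, chr6:48701582-48708225. The coding sequences of Gimap3 and Gimap5 share 87.1% of their bases, and their whole transcripts hold an unbroken identical run of 140 bases. Reads could thus be split between these 2 genes or dropped by the counting, but how near this run lies to the 5′ ends was not tested. The next most similar pair, Gimap7 and Gimap9, share 65.1% of their coding bases, with no identical run over 17 in their transcripts. A further gene model on the plus strand, Gm28053 (chr6:48718607-48752644), shares 81 of the first 100 exonic bases of Gimap7 and 97 of those of Gimap1, where a 5′ library reads, and held 21 to 78 UMIs in a library. Gimap1os is antisense to Gimap1.

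**Figure D1:**
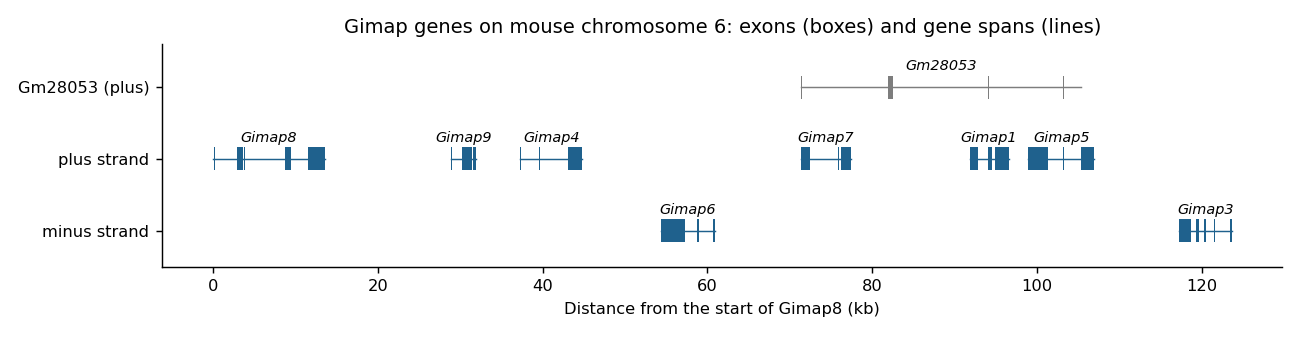
Map of the Gimap cluster, with the distance from the start of Gimap8 in kb on the x axis and 1 row each for the plus strand, the minus strand and the model Gm28053. Boxes are exons and lines gene spans, and the start of Gm28053 is seen to coincide with that of Gimap7.

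The sequences below are the 250 bases before the transcription start of 3 members, from RefSeq (GRCm38.p6), each written 5′ to 3′ on the gene's own strand. They are shown for a comparison of neighbours: on the CPM scale used below Gimap7 was higher by 1.5-fold in the aged library in all 6 comparisons, Gimap4 in CD8 cells only and Gimap6 in none. Capitals mark matches, on either strand, to short letters bound by factor families of T cells: AGGAAG (ETS), TGTGGT (RUNX), CCACCC (KLF), TTCNNNGAA (STAT) and CTTTGA (TCF/LEF). The windows are chr6:48718371-48718620 (plus strand) for Gimap7, chr6:48684328-48684577 (plus) for Gimap4 and chr6:48708245-48708494 (minus) for Gimap6.
Gimap7: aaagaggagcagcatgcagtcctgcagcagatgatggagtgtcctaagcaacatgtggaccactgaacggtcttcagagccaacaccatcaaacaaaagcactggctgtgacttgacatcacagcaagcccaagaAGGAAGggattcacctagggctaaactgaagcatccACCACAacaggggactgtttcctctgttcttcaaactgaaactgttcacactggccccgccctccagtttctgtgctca
Gimap4: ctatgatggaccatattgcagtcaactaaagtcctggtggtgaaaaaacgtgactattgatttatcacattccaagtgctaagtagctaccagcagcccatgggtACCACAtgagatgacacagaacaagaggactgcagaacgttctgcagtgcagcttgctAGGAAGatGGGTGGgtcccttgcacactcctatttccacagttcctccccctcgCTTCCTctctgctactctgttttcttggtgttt
Gimap6: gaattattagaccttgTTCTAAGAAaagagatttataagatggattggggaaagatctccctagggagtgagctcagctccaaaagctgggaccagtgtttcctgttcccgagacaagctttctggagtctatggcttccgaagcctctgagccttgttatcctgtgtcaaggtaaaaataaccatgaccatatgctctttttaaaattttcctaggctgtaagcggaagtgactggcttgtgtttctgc
All 8 members matched a RefSeq window, with 2 windows for Gimap8. The ETS letters were in 7 of the 8 members, all but Gimap6, and in 29.5% of 32851 windows of the same length over all genes. AGGAAG was the only ETS form searched. The Gimap6 window holds cggaag, which differs from it in the first letter only and was left unmarked. The RUNX letters were in Gimap4, Gimap7 and Gimap1 (14.0% of all windows), and the KLF letters in Gimap8, Gimap9, Gimap4, Gimap5 and Gimap3 (28.1%). The STAT letters, which read the same on both strands, were in Gimap6 and Gimap8 (7.02%), and in Gimap8 they overlap an ETS match. No member held the TCF/LEF letters, which 13.8% of windows hold. CTTTGA was the only TCF/LEF form searched. The windows of Gimap3 and Gimap8 hold ctttgt, which differs from it in the last letter only. Other forms of the RUNX, KLF and STAT letters were not searched either. These are matches of letters and say nothing about binding.

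The libraries held 2295950 to 4262917 UMIs. After filters on genes, mitochondrial UMIs and doublets, cells were kept as T cells when Cd3d, Cd3e or Cd3g was detected. They numbered 1007 in young meninges, 605 in young choroid plexus, 1408 in aged meninges and 1094 in aged choroid plexus, and the median cell held 3198, 2978, 2312.5 and 2838.5 UMIs. All sets of 4 values below keep this order. Cells in which Cd4 was detected without Cd8a or Cd8b1 were counted as CD4 (254, 160, 362 and 230 cells), those in which Cd8a or Cd8b1 was detected without Cd4 as CD8 (254, 160, 281 and 473), and those with no UMI of the 3 genes as neither (481, 269, 735 and 358). A CD4 or CD8 cell whose Cd4, Cd8a and Cd8b1 transcripts were not captured falls in the last class, and the part of depth in its size was not tested. The libraries shared 0 to 3 cell barcodes. The caller marked 16, 22, 0 and 5 cells as doublets, so it found none in aged meninges. Markers of other cells were present. Any of 5 B cell genes was seen in 41.9 to 51.2% of the cells of a young profile, with a summed level of 151 to 264 CPM. In aged profiles the share was 14.6 to 36.5% and the level 65.2 to 213 CPM, and 0 to 3 of the 5 genes were at 0 in a profile. Any of 5 gamma-delta T cell genes was seen in 1.25 to 5.0% of cells except in aged CD8 cells of the meninges (18.9%) and choroid plexus (32.8%), where 1 of the 5 was at 0. These genes were Trdc, Trdv4, Tcrg-C1, Tcrg-C2 and Tcrg-C4. They were not read one by one, so the shares are not counts of gamma-delta T cells. Any of 4 red cell genes was seen in 16.9 to 23.5% of the cells of an aged meninges profile and in 0 to 8.27% elsewhere. Their summed level was highest in young meninges neither cells (483 CPM), against 77.0 to 466 CPM in aged meninges profiles. Choroid plexus epithelium genes reached 164 CPM in young choroid plexus CD8 cells, from 2.5% of the cells. Macrophage genes reached 193 CPM in aged choroid plexus CD4 cells, from 0.87% of the cells. Of the endothelial list 433 UMIs were of Pecam1, which T cells also express, and Cldn5 was at 0.

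The 8 members were all detected in every cell type of every library. Cells were summed by profile, meaning 1 cell type of 1 library, of which there were 12, and levels are given in CPM, the UMIs of a gene scaled to the same total in every profile. In a 5′ library a UMI stands for 1 captured transcript, so the levels are not divided by gene length. Over the 12 profiles Gimap3, a close relative of Gimap5 that acts with it in T cell survival, had the highest median level (657 CPM), followed by Gimap6 (469.8), Gimap1 (366) and Gimap4 (340.4). Gimap5 (191), Gimap7 (167), Gimap9 (119) and Gimap8 (102) were lower. Bases shared by Gimap3 with Gimap5, and by Gm28053 with Gimap7 and Gimap1, may affect these levels and the shares drawn from them. This was not tested. The ranges of neighbours in this order overlapped for every pair: Gimap3 ran from 506 to 844 CPM and Gimap6 from 356 to 659, and Gimap7 ran from 94.2 to 263 and Gimap9 from 66.2 to 132.

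**Figure D2:**
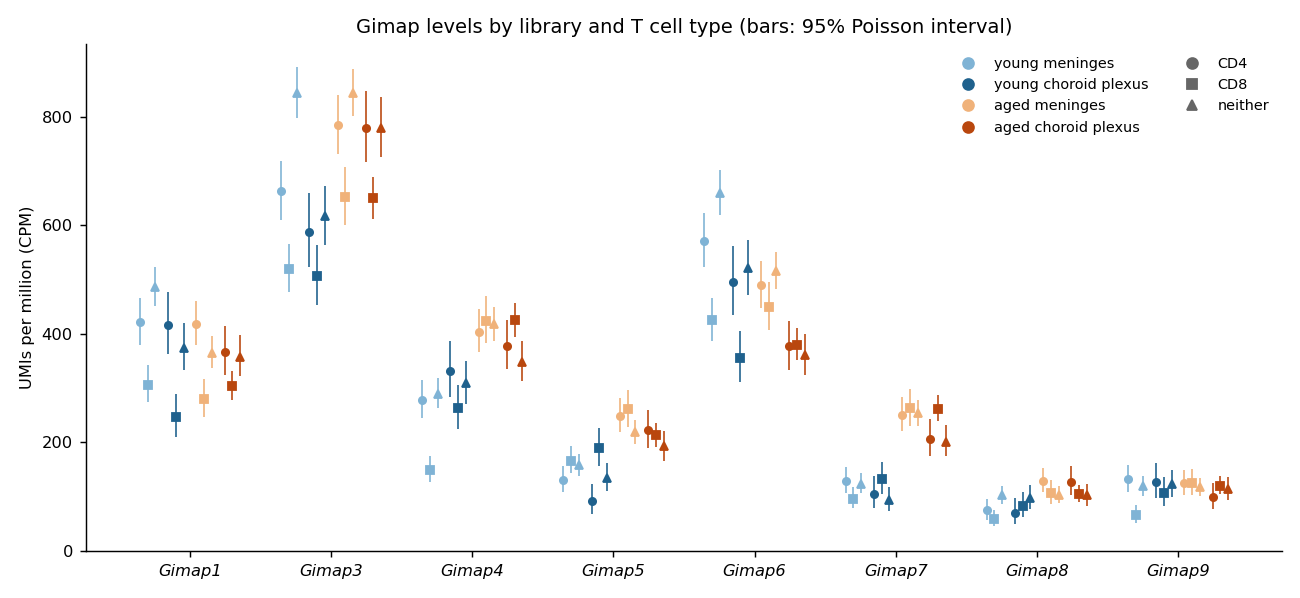
Level of each Gimap member in CPM (y axis) in CD4, CD8 and neither cells of the 4 libraries, with points for single libraries and bars for exact Poisson 95% intervals. Gimap7 sits between 94.2 and 132 CPM in the young and between 201 and 263 in the aged profiles, while the levels of Gimap6 and Gimap1 overlap between the ages.

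Summed over the 8 members, CD4 cells held 2399, 2226, 2850 and 2558 Gimap CPM, CD8 cells 1788, 1885, 2563 and 2457, and neither cells 2780, 2268, 2834 and 2455. The family thus made up a small and fairly even part of the transcripts, with the lowest sums in young CD8 cells. After each cell was thinned to 1000 UMIs, a T cell held a UMI of 1.90, 1.72, 2.21 and 2.06 members on average, and 13.6, 16.2, 10.1 and 12.5% of cells held none. A Gimap3 UMI was seen in 49.7% and a Gimap7 UMI in 16.9% of 4041 thinned T cells of all libraries. Among the cells left out for want of a Cd3 UMI (51 cells, 31 after thinning, median 1236 UMIs before it against 2834.5 in T cells) these shares were 25.8% and 6.45% (exact interval of the latter 0.791 to 21.4%). Those cells carried fewer UMIs and are not shown to lack the genes.

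The comparison of aged with young asked which members differed with age in each tissue and cell type. Gimap7 was higher in the aged library in all 6 comparisons, by close to 2-fold or more, and it was the only member of which this held. How many of all genes were higher in all 6 was not counted. The 6 comparisons come from 2 pairs of libraries and are not independent of each other. Gimap4, Gimap5 and Gimap8 were higher by 1.5-fold in 2 or 3 of the 6, and Gimap3, Gimap6 and Gimap1 in none. A gene was counted as higher or lower here when it held at least 20 UMIs in at least 1 of the profiles compared and its CPM, after 10 CPM were added to both, differed at least 1.5-fold. Log2 differences below include this added 10 CPM, and ratios do not.

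Among all genes tested 12.6, 11.1 and 10.1% were higher by this rule in the aged meninges (CD4, CD8 and neither cells), and 3, 5 and 1 of the 8 members were. In the choroid plexus 18.1, 11.4 and 12.9% of all genes were higher, and 3, 2 and 1 of the 8. No member was lower, where meningeal values for all genes were 6.23, 7.02 and 5.25% and those of the choroid plexus 6.13, 3.43 and 5.39%, but Gimap6 was lower in 1 comparison under each of 2 other scalings. The median log2 difference of the members was 0.38, 0.69 and 0.01 in the meninges, next to 0.08, 0.04 and 0.05 for all genes, and 0.29, 0.29 and 0.11 in the choroid plexus, next to 0.16, 0.12 and 0.13. The members thus stood above the median of all genes in CD4 and CD8 cells and below it in neither cells. The sum of the family was 0.03 to 0.52 higher on the log2 scale, with 5 of 6 intervals above a ratio of 1, and turned to -0.08 and -0.01 in neither cells of the meninges and choroid plexus when ribosomal protein and mitochondrial UMIs were left out of the totals.

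Gimap7, a GTPase that pairs with other GIMAP proteins and speeds their GTP hydrolysis, had in CD8 cells 96.5 CPM in young meninges (interval 78.7 to 117), 132 in young choroid plexus (106 to 164), 263 in aged meninges (231 to 299) and 262 in aged choroid plexus (239 to 287). In CD4 cells the values were 129, 105, 251 and 206 CPM, and in neither cells 124, 94.2, 253 and 201 CPM. No young value reached the lowest aged one. The ratio of aged to young was 2.72 in meningeal CD8 cells (2.15 to 3.47) and 1.98 in choroid plexus CD8 cells (1.57 to 2.53), and for CD4 cells 1.95 (1.56 to 2.45) and 1.97 (1.43 to 2.76). Neither cells had ratios of 2.04 and 2.14. On the log2 scale the 6 differences ran from 0.91 to 1.36. The median of all genes tested shifted by 0.04 to 0.16 in the same comparisons. With the cells that carried markers of other cell types left out, the 6 differences ran from 0.53 to 1.37, and without gamma-delta and natural killer marker cells from 0.93 to 1.69. The value of 0.53 falls short of the 1.5-fold rule (log2 0.585), so Gimap7 did not pass it in all 6 comparisons under that alternative. It left out every T cell with a UMI of those marker lists, Pecam1 included. B cell genes alone were seen in 41.9 to 51.2% of the cells of a young and 14.6 to 36.5% of an aged profile. Gm28053, which shares the 5′ end of Gimap7, had 8.81, 10.3, 18.5 and 21.4 CPM, and its part in the Gimap7 values was not tested.

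Counted in cells, a Gimap7 UMI was present in 7.48, 14.6, 22.6 and 23.8% of CD8 cells thinned to 1000 UMIs. In CD4 cells the shares were 9.88, 11.3, 24.7 and 20.1%, and in neither cells 9.92, 8.24, 20.7 and 15.7%. Without thinning they were 22.0, 31.2, 52.3 and 57.5% of CD8 cells. The aged shares were higher than the young ones in each tissue and cell type, as they were by CPM. Every young share was above the 6.45% of the cells without a Cd3 UMI but within the interval of that value.

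Gimap4, which promotes the death of T cells after an apoptotic signal, differed most in CD8 cells. Its levels there were 149, 263, 424 and 425 CPM, so that both aged libraries stood above both young ones. The aged to young ratio was 2.84 in the meninges (2.35 to 3.44) and 1.61 in the choroid plexus (1.36 to 1.92). In CD4 cells Gimap4 had 279, 332, 404 and 378 CPM and in neither cells 289, 309, 417 and 349 CPM, all below the 1.5-fold rule. The 2 choroid plexus intervals of these cell types included a ratio of 1.

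Gimap5, the survival factor whose loss empties the T cell pool, had 131, 92.6, 249 and 223 CPM in CD4 cells. The aged values were 1.90 times the young one in the meninges (1.52 to 2.39) and 2.41 times in the choroid plexus (1.73 to 3.42). In CD8 cells its levels were 167, 189, 261 and 213 CPM, and the ratio passed 1.5 in the meninges only, while the choroid plexus interval (0.915 to 1.40) included 1. The comparison of Gimap5 is limited by its likeness to Gimap3. Gimap3 itself had 662, 588, 784 and 779.8 CPM in CD4 cells and log2 differences of 0.00 to 0.40, none of them past the rule.

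Gimap8, the largest member with several GTPase domains, had 74.5, 70.5, 129 and 127 CPM in CD4 cells and 58.7, 83.5, 107 and 105 CPM in CD8 cells. Its difference passed 1.5-fold in CD4 cells of both tissues and CD8 cells of the meninges (log2 0.72, 0.77 and 0.77). Neither cells, with 102, 97.9, 103 and 102 CPM, showed differences of 0.01 and 0.06. Gimap9 passed the rule in meningeal CD8 cells alone (66.2 CPM young, 126 aged, log2 0.83), and its other 5 differences ran from -0.32 to 0.15.

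Gimap6, which binds a GABARAP-type autophagy protein, went the other way in CD4 and neither cells. It had 571, 495, 489.9 and 377 CPM in CD4 cells and 659, 521, 515 and 361 CPM in neither cells, and the aged level was lower in each tissue, by ratios of 0.693 to 0.858 whose 4 intervals all lay below 1. In CD8 cells its levels were 425, 356, 449.7 and 379.7 CPM and both intervals included 1. No Gimap6 difference reached 1.5-fold. Under the alternatives 6 of 68 Gimap6 values turned sign, and the values ran from -0.65 to 0.26. When ribosomal protein and mitochondrial UMIs were left out of the totals the Gimap6 differences ran from -0.65 to -0.01 and those of Gimap7 from 0.81 to 1.26. Gimap1, needed for the survival of mature lymphocytes, had differences from -0.40 to 0.28, none past the rule.

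**Figure D3:**
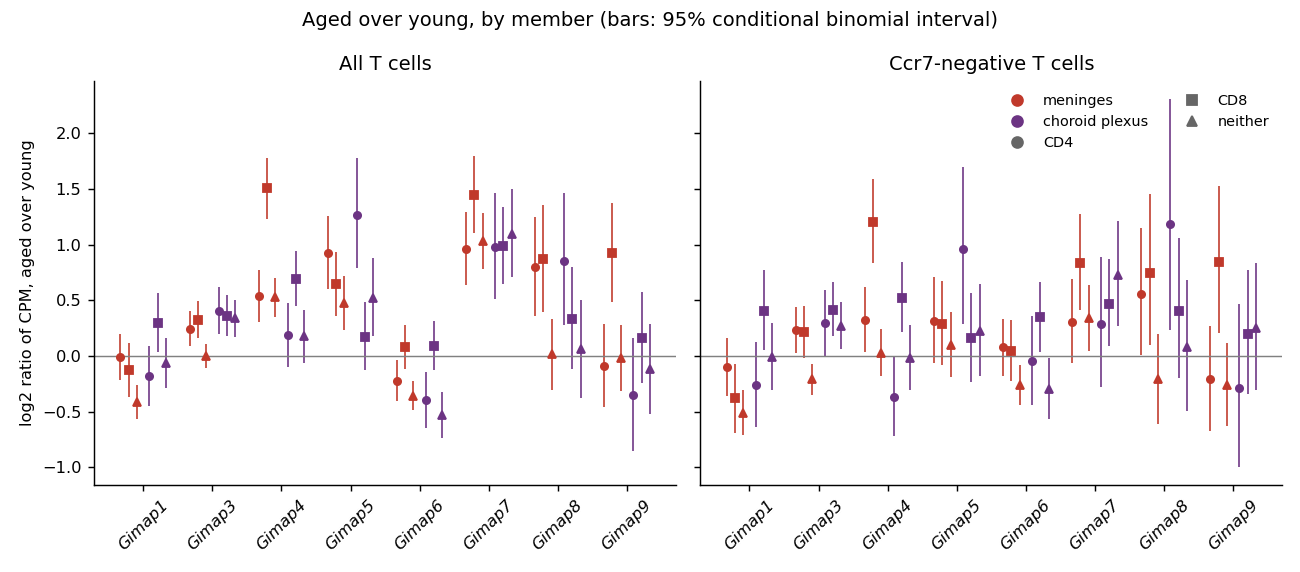
Log2 ratio of the plain CPM of aged over young (y axis, no CPM added) for each member in each cell type and tissue, with conditional binomial 95% intervals. Over all T cells (left) the Gimap7 intervals lie above 0 in all 6 comparisons and those of Gimap6 below 0 in 4. In Ccr7-negative cells (right) 4 of Gimap7 lie above 0, and of Gimap6 2 lie below and 1 above.

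The T cells of the 2 ages differed in state. Cells with a UMI of Ccr7, the receptor that guides naive and central memory T cells to lymph nodes, made up 59.7 and 54.7% of T cells in the young libraries and 9.52 and 9.87% in the aged ones. Within each library the Ccr7-positive and Ccr7-negative cells were compared, which asks how the members vary with the state of the cell at 1 age. Ccr7 lies outside the family, but a Ccr7 UMI is more easily seen in a deep cell: median UMIs of positive and negative cells were 3261 and 3091, 3082 and 2919, 3020 and 2242.5, and 3754 and 2752.

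In young meninges 18.2, 10.2 and 15.8% of all genes tested were lower in Ccr7-positive CD4, CD8 and neither cells, and 3, 2 and 3 of the 8 members were. In young choroid plexus 9.49, 23.0 and 15.6% of all genes were lower, and 2, 1 and 2 members. In aged meninges these shares were 27.5, 36.2 and 23.2%, with 2, 5 and 2 members, and in aged choroid plexus 27.8, 19.7 and 22.9%, with 2, 2 and 3 members. A count of 2 among 8 members is close to these shares in most aged profiles. No member was higher in the positive cells, where 7.61, 5.82 and 5.34%, 9.24, 8.15 and 5.53%, 7.55, 5.31 and 4.08%, and 5.69, 4.53 and 7.27% of all genes were, in the same order. Under some alternatives, however, Gimap6, Gimap8 and Gimap9 reached 1.5-fold higher in positive cells, Gimap6 in 2 of the 12 profiles under each of the other scalings. The share of UMIs from ribosomal protein genes moved with this gate, from 28.8% in negative to 37.4% in positive CD4 cells of young meninges, and the median of all genes shifted by up to -0.36 (aged meningeal CD8 cells). The family sum was lower in positive cells in all 12 profiles, by -0.58 to -0.10 on the log2 scale. With ribosomal protein and mitochondrial UMIs left out of the totals, this difference shrank in young meningeal CD4 cells. In young choroid plexus neither cells its sign turned. The part of the ribosomal share in the differences was not tested further.

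Gimap7 was lower in the Ccr7-positive cells in all 12 profiles, and past the 1.5-fold rule in 10. In young meninges it had 67.8 CPM in positive and 208 in negative CD4 cells, 62.4 and 161 in CD8 cells, and 64.5 and 209 in neither cells. In young choroid plexus the pairs were 62.9 and 179, 61.2 and 201, and 62.9 and 129.7 CPM. Every young Ccr7-positive value was thus between 61.2 and 67.8 CPM. In aged meninges the pairs were 194 and 257, 109.9 and 286, and 177 and 264 CPM, and in aged choroid plexus 128 and 218, 162 and 277, and 104 and 215 CPM, the positive cells resting on 12 to 37 UMIs each. The log2 differences ran from -0.39 to -1.56, and 10 of 12 intervals excluded a ratio of 1. Of 156 values under the alternatives 2 turned to a higher level in positive cells, 0.12 in aged choroid plexus CD4 cells when the gate was set after thinning and 0.14 in aged meningeal CD4 cells when cells were thinned before summing.

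Gimap4 and Gimap5 were also lower in Ccr7-positive cells in all 12 profiles, by -0.25 to -1.51 and -0.12 to -1.58 on the log2 scale, and passed the rule in 6 and 7 of them, but for Gimap5 8 of 156 values under the alternatives turned to a higher level, the highest 0.25. They came from 5 profiles, with young choroid plexus CD8 cells turning under both other scalings and the rest under thinning or another gate. In young meningeal neither cells, for example, Gimap4 had 193 CPM in positive and 426 in negative cells. Gimap3 was lower in all 12, with the sign turned in 2 young profiles by the other scalings and in others by thinning or a gate set after it, and passed the rule in 1. Gimap6 had the opposite sign in 7 of 12 profiles. In young meningeal CD4 cells it had 649.6 CPM in Ccr7-positive and 468 in Ccr7-negative cells (log2 0.46), and in young choroid plexus CD4 cells 557 and 385 CPM (0.52). In all, 5 of the 6 young profiles had Gimap6 intervals above a ratio of 1, and in the aged profiles none did and 1 lay below.

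**Figure D4:**
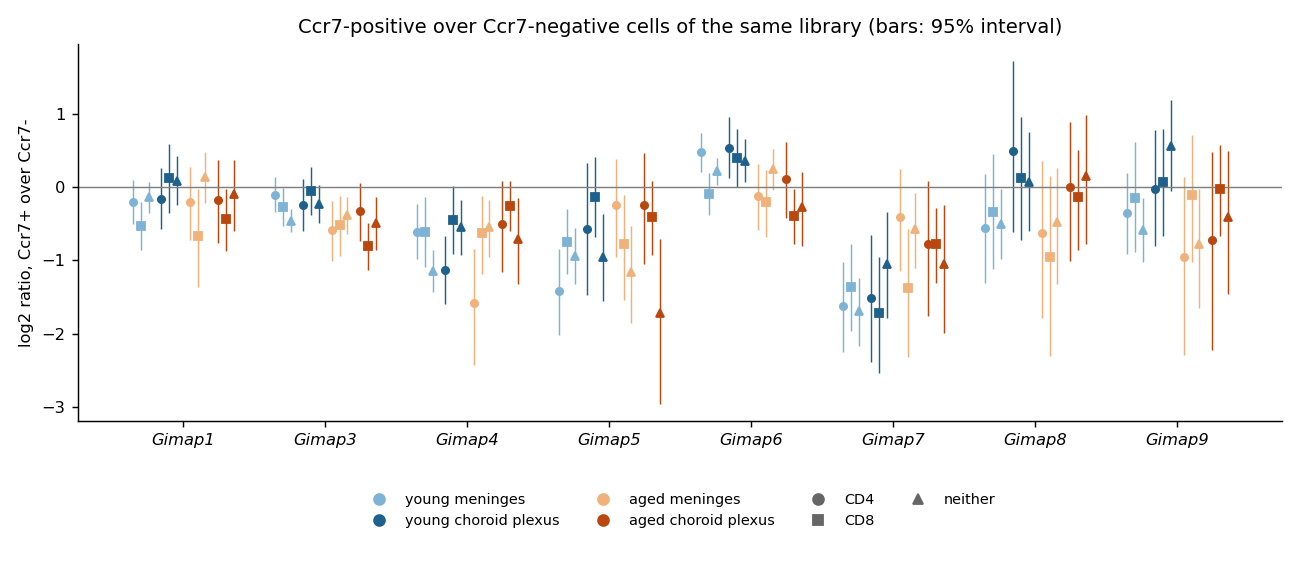
Log2 ratio of the plain CPM of Ccr7-positive over Ccr7-negative cells (y axis, no CPM added) for each member in the 12 profiles, with conditional binomial 95% intervals. The points of Gimap7, Gimap4 and Gimap5 lie below 0, though 5 of Gimap5 and 2 of Gimap7 turn above it under other scalings, thinning or other gates, and those of Gimap6 lie on both sides of it.

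The aged to young comparison was then made within the cells of 1 gate. In Ccr7-negative meningeal cells 11.3, 12.8 and 8.53% of all genes were higher with age (CD4, CD8, neither) and 0, 4 and 0 of 8 members, and in the choroid plexus 18.8, 12.1 and 13.3% of all genes and 2, 0 and 1 members. No member was lower, against 5.34, 6.03 and 5.65% and 5.83, 4.61 and 4.9% of all genes, though Gimap1, Gimap4, Gimap6 and Gimap8 reached 1.5-fold lower values with thinning, the gate on Ccr7 or Lef1 or other marker cells left out. In these cells Gimap7 was higher in the aged library in all 6 comparisons, by 0.29, 0.79 and 0.32 on the log2 scale in meningeal CD4, CD8 and neither cells and by 0.27, 0.45 and 0.69 in the choroid plexus. These values were smaller than those over all cells in every comparison, 2 passed the rule, and 4 intervals lay above a ratio of 1. They depended on how the gate was set. When cells with a UMI of Lef1, a transcription factor of naive T cells, were taken out along with the Ccr7-positive ones, the values in the same order were 0.01, 0.04, 0.15, -0.04, 0.05 and 0.60, whereas with the Ccr7 gate set after thinning they ran from 0.66 to 1.22. With cells thinned before summing, choroid plexus CD4 and CD8 cells turned to -0.01 and -0.04. Within Ccr7-positive cells Gimap7 was higher in the aged libraries by 0.65 to 1.39 and past the rule in all 6, with 3 intervals above a ratio of 1. In 3 of the 6 the 20 UMIs were in the young profile and the aged one held 12 or 13.

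Of the other members in Ccr7-negative cells, Gimap4 had 193 CPM in young and 445 in aged meningeal CD8 cells, a ratio of 2.30 (1.78 to 3.01). Its other differences ran from -0.36 to 0.51 and none passed the rule. In Ccr7-negative meningeal CD8 cells Gimap8 (log2 0.67) and Gimap9 (0.76) passed it too, but Gimap9 turned sign with the gate on Ccr7 or Lef1. In Ccr7-negative choroid plexus CD4 cells Gimap5 (0.90) and Gimap8 (1.06, with 10 UMIs in the young profile) passed it. In Ccr7-positive meningeal cells 2, 3 and 2 members were higher, against 10.9, 6.76 and 7.3% of all genes, and 2, 0 and 0 lower, against 19.7, 26.1 and 16.3%. In Ccr7-positive choroid plexus cells 3, 2 and 1 were higher, against 9.76, 11.6 and 12.3%, and 1, 0 and 2 lower, against 21.7, 12 and 17.5%. With 20 UMIs asked of the profile with the higher CPM, a choice made after seeing the data that changed no count in the other comparisons, 2, 1 and 2 members were higher in meningeal cells and 0, 2 and 0 in those of the choroid plexus. The family sum in Ccr7-negative cells differed by -0.16 to 0.39.

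The make-up of the family sum was also followed, as the share of each member in all Gimap UMIs of the T cells of a library. Gimap7 held 4.88, 5.08, 9.29 and 9.42% of Gimap UMIs, so its share was higher in both aged libraries. Gimap6 held 23.8, 21.6, 17.6 and 15.3%, the reverse. Gimap1 held 17.4, 16.3, 13.0 and 13.4%. Gimap3 held 29.4, 26.9, 28 and 28.5% and stayed the leading member in every library. Gimap4 held 10.2, 14.0, 15.1 and 15.8% and Gimap5 6.38, 6.58, 8.63 and 8.51%. Shares do not depend on the total of the library, but a member's share falls when another's rises.

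By cell type the Gimap7 share was 3.37 to 4.86 percentage points higher and the difference in the Gimap6 share was -8.26 to -3.44 points, and all 12 intervals excluded 0. The same shift was seen between states of 1 library: Gimap7 held 3.03% of Gimap UMIs in Ccr7-positive and 7.06% in Ccr7-negative cells of young meninges, and 3.11 and 7.36% in young choroid plexus. In the aged libraries these pairs were 7.63 and 9.47% and 7.42 and 9.63%. Gimap6 held 27.9 and 18.9%, 25.2 and 17.4%, 22.4 and 17.1%, and 16.9 and 15.1%. Within Ccr7-negative cells the age differences of the Gimap7 share were 0.56 to 3.14 points, and several of their intervals included 0. Those of the Gimap6 share were -4.71 to -0.49 points. Of 54 values under the alternatives 8 of the Gimap7 share and 9 of the Gimap6 share turned sign.

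**Figure D5:**
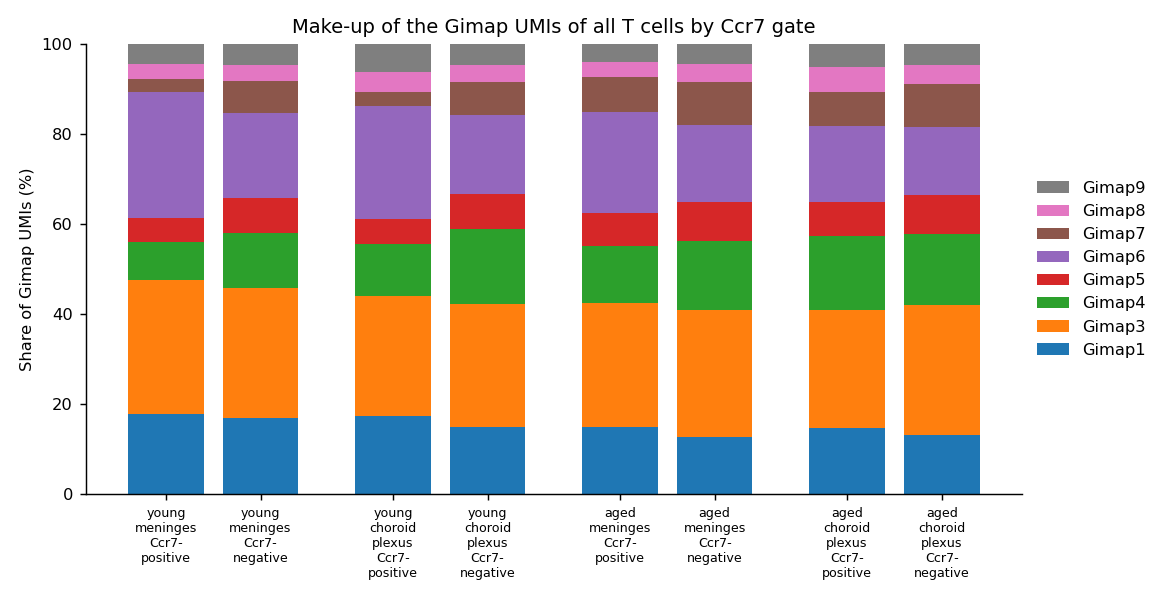
Share of each member in the Gimap UMIs of all T cells (y axis, %) in Ccr7-positive and Ccr7-negative cells of the 4 libraries. The Gimap6 segment is widest in young Ccr7-positive cells (27.9 and 25.2%) and the Gimap7 segment narrowest there (3.03 and 3.11%).

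Other single-gene gates were set on all T cells to describe the cells that carry Gimap7. The gate genes were named after their values were seen, so the directions below are a description and no separate support. Over the 12 profiles Cxcr3 had a correlation of 0.95 with Gimap7 and Lef1 of -0.95. No intervals are given for these levels, and the part of depth in these gates was not tested. Cells with a UMI of Cxcr3, a chemokine receptor of activated T cells, had 249, 252, 307 and 273 Gimap7 CPM, and cells without one 82.1, 73.7, 215 and 208. For Gzmk, a granzyme of effector memory cells, the levels were 264, 224, 293 and 291 CPM with a UMI and 105, 96.9, 239.7 and 206 without. Gimap7 was therefore higher in the Cxcr3 and Gzmk cells of each library, with the wider gap in the young. The reverse held for Lef1 (82.9, 77.7, 237 and 201 CPM with a UMI, 182, 169, 263 and 245 without) and for S1pr1, the receptor for exit from lymphoid organs (83.0, 60.7, 236 and 194 with, 150.5, 157, 265 and 248 without). Cells with a UMI of Foxp3, the regulatory T cell factor, had 179 against 114 CPM in young meninges, 348 against 244 in aged meninges and 293 against 230.0 in aged choroid plexus. Young choroid plexus had under 20 such cells and no value is given.

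CD8 was compared with CD4 in each library to see whether a lineage carries more of the family. Gimap1 was lower in CD8 cells in all 4 libraries, with 307, 247, 281 and 304 CPM against 421, 417, 419 and 367 in CD4 cells, and all 4 intervals lay below a ratio of 1. It passed the rule in young choroid plexus (log2 -0.73). Gimap5 was higher in CD8 cells there (189 against 92.6 CPM, 0.96), while the other libraries had values from -0.06 to 0.33. In young meninges 2 of 8 members were lower in CD8 cells and none higher, against 9.4 and 2.74% of all genes, and in young choroid plexus 1 was lower and 1 higher, against 8.84 and 5.88%. No member passed the rule in the aged libraries, where 11.8 and 6.81% of all genes were lower and 3.02 and 4.66% higher. The log2 difference of the family sum in CD8 from CD4 cells was -0.42 to -0.06, and in aged choroid plexus its sign turned under 2 other scalings. B cell markers also differed between these cell types in the aged libraries, with UMIs in 29.6 and 36.5% of CD4 and 14.6 and 18.2% of CD8 cells. With cells carrying any marker of other cell types left out, the difference of the sum was smaller in young meninges. In the other libraries it stayed within its counting interval. The part of B cell markers alone was not tested.

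Between the tissues few differences of the members passed the rule. The family sum was lower in the choroid plexus in 5 of 6 comparisons (log2 -0.29 to 0.08), with 4 intervals below a ratio of 1. In aged CD4 and aged neither cells all 8 members were lower there, none past the rule. Gimap4 (263 against 149 CPM, log2 0.78) and Gimap9 (107 against 66.2 CPM, 0.62) were higher in young CD8 cells of the choroid plexus than of the meninges, 2 of 8 members against 4.71% of all genes. No member was higher past the rule in young CD4 or neither cells or in aged CD4, CD8 or neither cells, against 3.41, 2.3, 3.02, 4.64 and 1.81% of all genes. None was lower past the rule in young CD4, CD8 and neither or aged CD4, CD8 and neither cells, against 11.8, 8.56, 7.99, 6.73, 2.85 and 4.76%. Gimap6 was below its meningeal level in the choroid plexus in all 6 comparisons, with log2 differences of -0.50 to -0.20, and 5 intervals lay below a ratio of 1.

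Over the 12 profiles the levels of Gimap7 and Gimap5 had a Pearson correlation of 0.83, those of Gimap7 and Gimap4 of 0.78, and those of Gimap1 and Gimap6 of 0.75, while Gimap7 and Gimap6 had -0.31. These are descriptions over 12 points that share libraries and depth. Among 2381 genes ordered by their correlation with Gimap7, Gimap5 had rank 132 and Gimap4 rank 208. By correlation with Gimap6, Gimap1 had rank 66. Among 2374 genes the profile of the family sum was most like those of Glmp (0.92), Smndc1, Gbp7, Rabac1, H3f3b, Itm2b, Rer1, Ly6e, Tmbim6 and Elf2 (0.88) and least like those of Nme2 (-0.88), Eef1b2, Gm42418, Top2b and Smim4. For Gimap7, named here after its values were seen, the most similar were Psmb8 (0.97), a subunit of the immunoproteasome, Serpina3g and H2-Q7, and the least similar Cmah (-0.97), Pik3ip1, Nsg2 and Lef1. In single cells thinned to 1000 UMIs, correlations between members were -0.06 to 0.13, too weak at this sparsity to describe.

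The genes next to the cluster were also read. Of 32 annotated neighbours within 200 kb, 21 were in the count tables, 15 had a UMI and 8 had at least 20: Tmem176b, Tmem176a, Lrrc61, Zfp775, AI854703, Repin1, 4833403J16Rik and Gm28053. Tmem176b and Tmem176a, a pair of related membrane proteins, had 22.7, 6.89, 88.8 and 89.8 CPM and 13.1, 2.46, 50.1 and 70.9 CPM. Their aged to young log2 differences over all T cells were 1.59 and 1.38 for the meninges, with 1.08 for Gimap7, and 2.56 and 2.70 for the choroid plexus, with 1.06 for Gimap7. Their young choroid plexus levels rested on 14 and 5 UMIs. The differences in meninges and choroid plexus were -0.30 and 0.42 for Lrrc61, -0.23 and 0.04 for Zfp775, and 0.19 and 0.44 for AI854703. For Repin1 they were 0.16 and 0.18, for 4833403J16Rik 0.37 and 0.53, and for Gm28053 0.60 and 0.62. The median of all genes was 0.05 and 0.10. Apart from the Tmem176 pair these neighbours had low levels beside the added 10 CPM, which draws log2 differences towards 0. Gm28053 had 8.81, 10.3, 18.5 and 21.4 CPM, 4833403J16Rik 4.26, 2.46, 8.44 and 7.94 CPM, and Repin1 0.568, 0.985, 1.85 and 2.46 CPM. Their differences are thus not on a par with those of Gimap7.

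Lists of related genes were chosen with earlier results of these data known and are given as counts. Of 20 naive and quiescence genes, 15 to 17 were lower by 1.5-fold in the aged library in each of the 6 comparisons, against 3.43 to 7.02% of all genes, with mean log2 differences over the 4 comparisons of CD4 and CD8 cells of -2.79 for Dapl1 and -2.74 for Igfbp4 but -0.17 for Il7r, the interleukin-7 receptor, and -0.19 for the growth-arrest gene Btg1. Of 20 effector memory genes, 18 to 20 of them measured, 16 to 19 were higher, against 10.1 to 18.1% of all genes, from Gzmk (2.42) and S100a6 (2.01) down to Crip1 (0.58) and the adhesion receptor gene Cd2 (0.33). Il7r, placed here with the naive genes, is named as an effector memory molecule in the study. Its differences were 0.16 and 0.02 in CD4 and -0.38 and -0.46 in CD8 cells, meninges first. No Gimap member is in these lists. Of the measured Bcl2 family genes, which carry out and block apoptosis, 6 of 13, 4 of 11 and 4 of 13 were higher in aged meninges and 4 of 9, 1 of 11 and 5 of 10 in aged choroid plexus, and 0 or 1 lower. Of all genes 12.6, 11.1, 10.1, 18.1, 11.4 and 12.9% were higher in the same order. The median log2 differences of the Bcl2 family were 0.40, 0.17, 0.37, 0.54, 0.16 and 0.63. The extremes of the mean difference over CD4 and CD8 cells were Bcl2a1b (1.36) and Bcl2a1d (1.28), which block cell death, and Bbc3 (-0.40) and Bad (-0.15), which promote it. Of the measured interferon-inducible GTPases 2 of 14, 4 of 13, 4 of 15, 0 of 9, 4 of 15 and 1 of 13 were higher. The values for CD4 cells of both tissues and neither cells of the choroid plexus are near or below the shares of all genes. Median log2 differences of these GTPases were 0.25, 0.38, 0.26, 0.04, 0.26 and 0.32, next to 0.08, 0.04, 0.05, 0.16, 0.12 and 0.13 for all genes. Mean differences over the same 4 comparisons ran from 0.53 for Gbp2 and 0.49 for Irgm1 to -0.03 for Gbp4 and -0.22 for Gbp9.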

How the data were processed

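The deposited files hold unnormalized UMI counts for each gene in each cell, which the authors made with Cell Ranger (3.1.0 in the file headers, 5.1.0 in the submitters' processing notes, which also name mm10). No count was corrected here for free RNA. Cells with 200 to 7000 genes and at most 5% mitochondrial UMIs were kept, doublets were removed per library with scrublet in scanpy 1.11.5 (expected rate 0.8% per 1000 cells), and T cells needed 1 Cd3 UMI. UMIs were summed per library, cell type and Ccr7 gate and scaled to CPM. Log2 differences have 10 CPM added. Levels have exact Poisson, ratios conditional binomial and shares of cells exact Clopper-Pearson 95% intervals. Thinning drew 1000 UMIs per cell without replacement (seed 0). The rule of size (20 UMIs in at least 1 of both profiles, 1.5-fold) was tried on simulated counts with 2-fold changes and counting error only. Only genes with at least 20 expected UMIs in the shallower profile were scored, in CD4 and CD8 cells without a Ccr7 gate. It found 172 to 174 of 200 changed genes. Of unchanged ones it called 52 of 3425 in choroid plexus CD8 cells up to 119 of 4891 in meningeal CD4 cells. These figures do not cover genes with fewer UMIs in 1 profile, neither cells or gated cells. The simulation held no variation between mice or libraries and cannot show how the rule fares with it. All members are named, with the genes most and least like the family sum (over genes with a mean of 50 CPM), neighbours within 200 kb, and the 2 genes at each end of each list by mean log2 ratio. Gate genes other than Ccr7 and genes like Gimap7 were named after their values were seen. The members and lists were chosen with earlier results of these data known. The study's Wilcoxon test over cells was not used, since cells are not replicates. Python 3.11.15, pandas 2.3.3, scipy 1.17.1 and matplotlib 3.10.9 were used. Strand and annotation release of the counting are not given in the sources used here.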

Additional observations from a re-analysis of the deposited data

Results flagged for a closer look

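Some members had opposite signs in 2 cell types, tissues or ages, with both intervals clear of a ratio of 1. These differences of differences were not tested. In Ccr7-negative cells the aged over young log2 difference of Gimap1 in CD8 cells was 0.39 in the choroid plexus and -0.37 in the meninges. That of Gimap3 was -0.21 in meningeal neither cells, and 0.23 in meningeal CD4 and 0.27 in choroid plexus neither cells. For Gimap4 it was -0.36 in choroid plexus CD4 cells, and 0.32 in meningeal CD4 and 0.51 in choroid plexus CD8 cells. For Gimap6 it was 0.34 in CD8 and -0.29 in neither cells of the choroid plexus. The difference of Ccr7-positive from Ccr7-negative CD8 cells of the choroid plexus was 0.38 for Gimap6 in the young and -0.39 in the aged library.

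The gene model Gm28053, which starts at Gimap7, runs across Gimap1, ends within Gimap5 and is no member, held 31 and 21 UMIs in the young and 70 and 78 UMIs in the aged libraries, meninges first, above the limit that a count of 0 allows.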

How the results depend on the processing

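No paired analysis was possible because each condition has 1 library, and no replicate could be left out for the same reason. Depth limits the aged Ccr7-positive cells, where Gimap7 had 12 to 37 UMIs per profile. The alternatives for single members and for their shares of the family were chosen after seeing the data. The age difference of Gimap7 was above 0 in all 68 alternatives (0.53 to 1.69), though the lowest value fell short of the 1.5-fold rule. That of the family sum lay between -0.09 and 0.54, with the other sign in 3. The values of the sum below moved by more than their counting interval, and for these the cause was not tested. With cells thinned to 1000 UMIs before summing, the sum was, for aged over young 0.33 (CD4 in meninges), 0.40 (CD8 in meninges), 0.47 (CD4 in choroid plexus), 0.25 (neither in choroid plexus), and for aged over young in Ccr7-negative cells -0.025 (CD8 in meninges), -0.021 (neither in meninges), 0.25 (CD4 in choroid plexus), 0.24 (CD8 in choroid plexus), and for Ccr7-positive over negative -0.79 (CD8 in young meninges), -0.21 (neither in young meninges), -0.31 (CD8 in young choroid plexus), -0.22 (neither in aged choroid plexus), and for CD8 over CD4 -0.33 (meninges, young), -0.078 (choroid plexus, young), -0.26 (meninges, aged), -0.21 (choroid plexus, aged), and for choroid plexus over meninges -0.23 (CD4 in young). With ribosomal protein and mitochondrial genes left out of CPM, the sum was, for aged over young 0.14 (CD4 in meninges), 0.39 (CD8 in meninges), -0.080 (neither in meninges), 0.067 (CD4 in choroid plexus), 0.28 (CD8 in choroid plexus), -0.014 (neither in choroid plexus), and for Ccr7-positive over negative -0.020 (CD4 in young meninges), -0.24 (CD8 in young meninges), -0.21 (neither in young meninges), 0.061 (neither in young choroid plexus), -0.27 (CD8 in aged meninges), -0.088 (neither in aged meninges), and for CD8 over CD4 -0.28 (meninges, young), -0.029 (meninges, aged), 0.024 (choroid plexus, aged). Without cells carrying other cell types' markers, the sum was, for aged over young 0.35 (CD4 in meninges), 0.36 (CD8 in meninges), -0.094 (neither in meninges), 0.51 (CD8 in choroid plexus), and for aged over young in Ccr7-negative cells 0.28 (CD4 in meninges), 0.12 (CD8 in meninges), -0.35 (neither in meninges), and for Ccr7-positive over negative -0.52 (neither in young meninges), -0.53 (CD8 in young choroid plexus), -0.84 (CD4 in aged meninges), and for CD8 over CD4 -0.22 (meninges, young), and for choroid plexus over meninges -0.16 (CD8 in young). Without cells carrying gamma-delta or natural killer markers, the sum was, for aged over young 0.12 (neither in meninges), and for aged over young in Ccr7-negative cells -0.0014 (neither in meninges), and for Ccr7-positive over negative -0.26 (neither in young meninges). With the Ccr7 gate set after thinning, the sum was, for aged over young in Ccr7-negative cells 0.54 (CD8 in meninges), -0.014 (neither in meninges), and for Ccr7-positive over negative -0.093 (CD4 in young meninges), -0.0032 (CD8 in young meninges), -0.14 (neither in young meninges), -1.12 (CD8 in aged meninges), 0.031 (CD4 in aged choroid plexus), -0.74 (CD8 in aged choroid plexus), -0.20 (neither in aged choroid plexus). With a gate on Ccr7 or Lef1, the sum was, for aged over young in Ccr7-negative cells -0.19 (CD8 in meninges), 0.23 (CD8 in choroid plexus), and for Ccr7-positive over negative -0.95 (CD8 in young meninges), -0.36 (CD8 in young choroid plexus), -0.22 (CD4 in aged meninges), -0.30 (CD8 in aged meninges). With median-of-ratios scaling, the sum was, for aged over young in Ccr7-negative cells -0.071 (neither in meninges), and for Ccr7-positive over negative -0.017 (CD4 in young meninges), -0.20 (CD8 in young meninges), -0.17 (neither in young meninges), and for CD8 over CD4 -0.27 (meninges, young), -0.12 (choroid plexus, young), -0.022 (meninges, aged), 0.10 (choroid plexus, aged). With the mean of per-cell CPM, the sum was, for aged over young 0.27 (neither in choroid plexus), and for aged over young in Ccr7-negative cells 0.23 (neither in choroid plexus), and for Ccr7-positive over negative -0.28 (neither in aged choroid plexus), and for choroid plexus over meninges -0.12 (neither in aged). With cells thinned to 500 UMIs, the share of cells with a UMI moved from young to aged, in points, of Gimap6 by -0.141 (meninges CD4), 4.97 (meninges CD8) and of Gimap7 by 5.46 (meninges CD4), 8.12 (meninges CD8). Without thinning, the share of cells with a UMI moved from young to aged, in points, of Gimap6 by -19.6 (meninges CD4), -18.4 (meninges neither), -15.3 (choroid plexus CD4) and of Gimap7 by 30.3 (meninges CD8), 18.7 (choroid plexus CD4), 26.3 (choroid plexus CD8), 15.3 (choroid plexus neither). The sign turned for 4 differences of single members: Gimap9 aged over young in Ccr7-negative CD8 cells of the meninges (-0.0083) and Gimap8 in Ccr7-positive over negative CD8 cells of aged meninges (0.026) with the gate on Ccr7 or Lef1, Gimap7 in Ccr7-positive over negative CD4 cells of aged choroid plexus (0.12) with the gate set after thinning, and the Gimap6 share of the family in Ccr7-negative meningeal CD8 cells (0.0028 points) without cells carrying other cell types' markers. The other single-member values that turned sign were not past the rule of size.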
